A study of Mus musculus with 19 samples.

Results

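The genes of prostaglandin and leukotriene synthesis and of the receptors for prostaglandin E2 were followed in retinal microglia 3 days after laser treatment (CNV d3). The set holds 10 genes, namely Ptgs1, Ptgs2, Ptges, Hpgds, Ptger2, Ptger4, Alox5, Alox5ap, Ltc4s and Lta4h. They were taken by symbol from the 27299 genes of the table of normalized counts, and each had 1 row. Both groups came from mice of 8 weeks, 6 samples from unlasered control mice and 6 samples from mice whose eyes each received 6 argon laser burns, which breach Bruch's membrane below the retina and start the growth of choroidal vessels (choroidal neovascularization, CNV). The labels name the strain C57BL/6J, and the methods of the study name Cx3cr1 GFP/+ mice, in which 1 allele of the microglial receptor gene Cx3cr1 carries a fluorescent reporter. For the laser treatment, the mice were anesthetized with ketamine and xylazine and their pupils were dilated with tropicamide and neosynephrine, and no such step was found for the control mice in the sources used here. The sex of the mice and the number of mice behind a sample are not given in the sources used here, so p-values measure the spread between these samples. Microglia are the resident macrophages of the retina, and they were sorted from the retina as cells with CD11b and CX3CR1 and without Ly6C, found on monocytes, and Ly6G, found on neutrophils. The study describes the cells as low for CD45, the labels as positive for it, so the gate on CD45, which is higher on most blood-derived myeloid cells than on microglia, is not settled here.

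Prostaglandins and leukotrienes are short-lived lipid signals made from arachidonic acid, which phospholipases release from membranes. Cyclooxygenases, encoded by Ptgs1 and Ptgs2, turn arachidonic acid into prostaglandin H2, from which terminal synthases make prostaglandin D2 (Hpgds), prostaglandin E2 (Ptges) and others. In the other arm, the lipoxygenase ALOX5 and its helper protein FLAP (Alox5ap) make leukotriene A4, which LTA4H turns into the chemoattractant leukotriene B4 and LTC4S into the cysteinyl leukotriene C4. Ptger2 and Ptger4 encode EP2 and EP4, the receptors for prostaglandin E2 that raise cyclic AMP. Microglia are known for their Ptgs1 and Hpgds, while Ptgs2 is the cyclooxygenase gene that inflammatory signals can induce.

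Gene reads totalled 23532260 to 29523018 in CNV d3 (6 samples) and 10963178 to 21525893 in the 5 control samples whose read totals were recovered, so each of these controls was shallower. One read was worth 0.739 to 1.99 normalized counts, and reads were found on 18276 to 19116 genes in CNV d3 and on 15076 to 17224 genes in control. The test was limma on log2(normalized counts + 1), with p-values adjusted over all 27299 genes by the method of Benjamini and Hochberg (padj), and all log2 fold changes (log2FC, CNV d3 against control) with their standard errors (SE) are on this scale. A gene with an absolute log2FC above 1.5 and a padj under 0.05 was called a differentially expressed gene (DEG).

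Of the 10 genes, 2 were higher in CNV d3 at a padj under 0.05 (Ptger2 and Ptger4) and 2 were lower (Ptgs1 and Ltc4s), where 8.29% of all genes were higher and 4.57% were lower. The 2 receptor genes were also increased DEG, a call that 3.91% of all genes received. None of the 10 was a decreased DEG, a call that 1.07% of all genes received. In Ptger2 and Ptger4 every CNV d3 sample lay above every control sample, which held for 4.64% of all genes, although the lowest CNV d3 value of Ptger2 (3.46 normalized counts) was under what 3 reads are worth in control 6 (5.96). In Ptgs1 and Ltc4s every CNV d3 sample lay below every control sample, which held for 2.83%. The median log2FC of the 10 genes was 0.018, and that of all genes was 0.15. The other 6 genes did not pass the test.

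The DNA before the starts of the 4 genes that passed is shown here, because these 4 are the members that differed between the groups. The sequences are those of RefSeq on GRCm38.p6, given from 5′ to 3′ on the strand of the gene. Each ends at the base before the RefSeq start, except that of Ltc4s, which ends 84 bases earlier to leave out bases that Gencode places in an exon. Capitals mark matches on either strand to the core of PU.1 (GAGGAA, a myeloid transcription factor) or to a GC box (GGGCGG). The motif TATAAA, which the basal transcription machinery binds, and the motif TGACGT, which opens a cyclic AMP response element, were searched as well.
Ptgs1: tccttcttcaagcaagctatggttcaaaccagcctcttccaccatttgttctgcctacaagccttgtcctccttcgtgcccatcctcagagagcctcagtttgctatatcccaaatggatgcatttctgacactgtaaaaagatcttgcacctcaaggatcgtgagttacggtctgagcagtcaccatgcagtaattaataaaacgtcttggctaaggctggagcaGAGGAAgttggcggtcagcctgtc
Ltc4s: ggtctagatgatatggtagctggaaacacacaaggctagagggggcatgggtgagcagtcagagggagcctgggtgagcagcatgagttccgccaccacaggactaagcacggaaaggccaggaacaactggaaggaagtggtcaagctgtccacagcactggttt
Ptger2: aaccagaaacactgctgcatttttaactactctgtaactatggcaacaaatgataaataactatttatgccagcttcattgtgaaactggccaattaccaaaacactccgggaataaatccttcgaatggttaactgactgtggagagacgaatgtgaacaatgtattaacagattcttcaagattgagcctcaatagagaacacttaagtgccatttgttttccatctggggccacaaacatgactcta
Ptger4: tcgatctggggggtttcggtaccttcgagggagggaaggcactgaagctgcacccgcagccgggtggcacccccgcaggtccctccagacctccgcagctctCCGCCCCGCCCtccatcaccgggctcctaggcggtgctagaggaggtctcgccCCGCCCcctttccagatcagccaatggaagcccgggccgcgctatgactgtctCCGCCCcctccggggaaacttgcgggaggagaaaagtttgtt
These stretches lie at chr2:36230176-36230425 on the plus strand, chr11:50238617-50238782 on the minus strand, chr14:44987861-44988110 on the plus strand and chr15:5244188-5244437 on the minus strand. The sequence of Ptgs1 held 1 PU.1 core, and that of Ptger4 held 4 GC boxes, of which 2 share 1 base. None of the 4 searched motifs was found in the sequences of Ltc4s and Ptger2. Among all 32851 promoter entries, 23.3% held a PU.1 core in the 250 bases before the start, 32.7% a GC box, 12.4% the motif TATAAA and 6.47% the cyclic AMP motif. The sequence of Ptger4 was 66.8% G and C and that of Ptger2 was 38.0%, with a median of 52.4% over all entries. A match is a description of these letters and was not tied to the difference in expression.

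Ptgs1, which encodes the constitutive cyclooxygenase COX-1, was the member with the highest level per exon length in both groups, and it fell to 56.7% of the control level in CNV d3. The gene lies on chromosome 2 at 36230426 to 36252272 (GRCm38, plus strand, 11 exon blocks after merging). The control samples held 40970 to 46773 normalized counts with a median of 44611, and the CNV d3 samples held 22271 to 28441 with a median of 24154. The lowest control sample was thus above the highest CNV d3 sample, and the samples of each group lay close together, with a coefficient of variation of 4.41% in control and 10.4% in CNV d3. The control mean was 44111 ± 1943 and the CNV d3 mean was 24992 ± 2610 (SD, n = 6 each; log2FC = -0.82, SE 0.071, padj = 8.1e-06). In bulk samples, fewer cells of a type and less RNA per cell cannot be told apart. The antisense gene Gm43621 shares exon sequence with Ptgs1, and the reads were counted without strand, so reads in the shared exons were dropped. From its other reads, Gm43621 held 102 normalized counts on average in control and 32.4 in CNV d3. The share of Ptgs1 reads dropped was not tested.

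Ptgs2, the inducible cyclooxygenase COX-2 on chromosome 1 (150100031 to 150108227), was close to absent in both groups. No read was found in 5 of the 6 control samples, and control 6 held 3.97 normalized counts, which were 2 reads. In CNV d3, sample 1 held 18.5 normalized counts from 25 reads and sample 3 held 7.16 from 8 reads, and the other 4 samples had none. The groups overlapped and the difference did not pass the test (log2FC = 0.83, SE 0.77, padj = 0.54). A sample without a read can hold up to 3 reads' worth of signal, which was 2.22 to 5.96 normalized counts, and this limit covers counting error only. In the 2 samples with more than 3 reads of Ptgs2, CNV d3 samples 1 and 3, the level of Ptgs1 per kb of exon was 1816 and 3669 times that of Ptgs2.

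**Figure D1:**
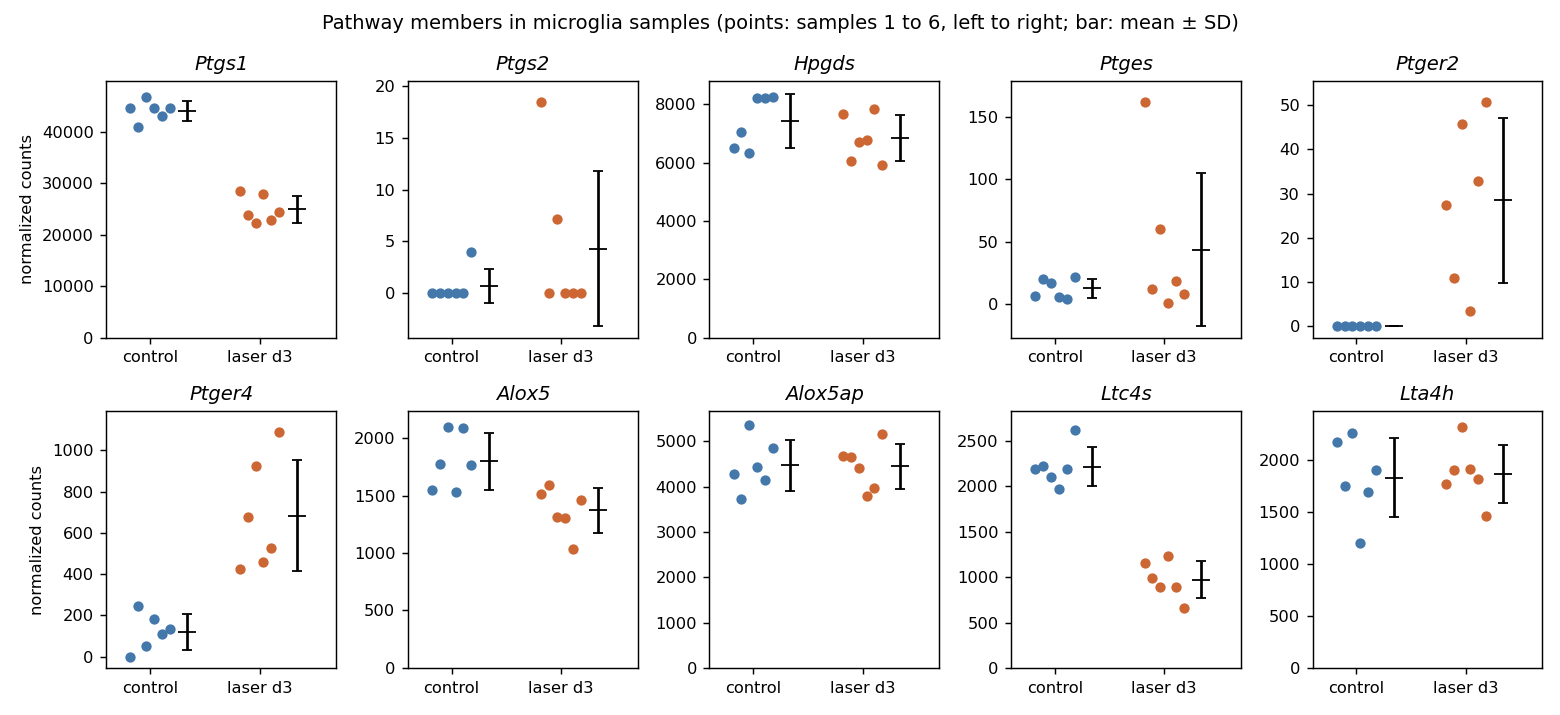
Normalized counts of the 10 genes (y axis, a scale for each gene) in the 6 control (blue) and 6 CNV d3 (laser d3, orange) samples, with 1 point per sample in the order of the replicate numbers and a bar for the mean ± SD. The points of Ptgs1 and Ltc4s in CNV d3 lie below all control points, those of Ptger2 and Ptger4 lie above, and the groups overlap in the other 6 genes.

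Of the terminal prostaglandin synthases, Hpgds was strongly expressed in both groups and Ptges was nearly silent. Hpgds, the hematopoietic prostaglandin D2 synthase on chromosome 6 (65117293 to 65144908, minus strand), held 6318 to 8259 normalized counts in control with a median of 7631. In CNV d3 it held 5939 to 7852 with a median of 6737, so the groups overlapped widely. The means were 7430 ± 915 and 6832 ± 789 (SD, n = 6 each), and the interval of the log2 difference ran from -0.33 to 0.094 (log2FC = -0.12, padj = 0.52). Thus, in samples in which Ptgs1 fell by 0.82 on the log2 scale, a fall of Hpgds by more than 0.33 lay outside the 95% interval.

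Ptges encodes the inducible microsomal prostaglandin E synthase and lies on chromosome 2 (30889471 to 30929863, minus strand). It held 4.02 to 21.8 normalized counts in control and 0.87 to 162 in CNV d3, with medians of 11.7 and 15.5. CNV d3 sample 1 stood apart with 162 and sample 3 followed with 60.0, whereas the other 4 lay between 0.87 and 18.4, inside or below the control range. The difference did not pass the test (log2FC = 0.72, SE 0.99, padj = 0.63), and the log2FC was 0.095 without CNV d3 sample 1, 0.38 without sample 3, 1.38 without sample 4 and 0.48 without control 5. With edgeR on the reads of 11 samples it was 1.67 (padj = 0.29). CNV d3 samples 1 and 3 were also the 2 samples of that group with reads of Ptgs2. Per kb of exon, Hpgds was 213 to 1254 times the level of Ptges in the control samples and 28.9 to 437 times in 5 CNV d3 samples, with the smallest ratio in sample 1. Sample 4 had 1 read of Ptges and was left out of this ratio.

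Both receptors for prostaglandin E2 that couple to cyclic AMP were higher in CNV d3. Ptger2 (EP2) lies on chromosome 14 at 44988195 to 45003820 on the plus strand. It had no read in any control sample and reads in every CNV d3 sample, with 27.3, 10.9, 45.6, 3.46, 32.8 and 50.7 normalized counts in samples 1 to 6. Sample 4 was the lowest with 4 reads and sample 6 the highest with 61 reads. The CNV d3 mean was 28.5 ± 18.7 (SD, n = 6). Against 3 reads in the shallowest control sample (5.96 normalized counts), the mean was at least 4.78-fold higher (limma padj = 0.00070). The level was low throughout, at 5.48 normalized counts per kb of exon. The antisense genes Gm17173 and Gm49364 overlap exons of Ptger2 and were not analysed here.

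Ptger4 (EP4), on chromosome 15 at 5206661 to 5244187 on the minus strand, was the more abundant of both receptors. In control samples 1 to 6 it held 0, 244, 54.0, 185, 109 and 135 normalized counts. In CNV d3 samples 1 to 6 it held 426, 677, 926, 460, 526 and 1087. The lowest CNV d3 sample was above the highest control sample, control 1 had no read although genes such as Ptgs1 were well covered there, and CNV d3 samples 3 and 6 were the highest, as they were for Ptger2. The means were 121 ± 87.9 and 684 ± 270 (SD, n = 6 each), a ratio of 5.64 (log2FC = 3.47, SE 1.03, padj = 0.037). Without control 1 the log2FC was 2.30 (limma padj = 0.0032). Without any 1 of the other 11 samples the gene no longer passed, with padj from 0.057 (without control 4) to 0.13 (without CNV d3 sample 6) and log2FC from 3.32 to 3.89. Per kb of exon, Ptger4 was 12.2 to 104 times the level of Ptger2 within the CNV d3 samples. The protein-coding gene Ttc33 overlaps exons of Ptger4 on the opposite strand, and it held 770 normalized counts on average in control and 720 in CNV d3 (log2FC = -0.040, padj = 0.92).

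Several markers of monocytes and dendritic cells were higher in CNV d3 as well. Of 10 monocyte genes, 5 were higher in CNV d3 and none was lower, where 8.29% and 4.57% of all genes were, and their summed level was 228 to 1028 normalized counts in control and 4982 to 51828 in CNV d3. Fn1, encoding fibronectin, made up most of that sum, with a CNV d3 mean of 19206. At 0 in all control samples were 4 of the 10 genes, among them Ly6c2, which encodes the Ly6C used to exclude monocytes and held 1.73 to 25.1 normalized counts in CNV d3. Of 8 dendritic cell genes, 4 were higher, and their sum was 167 to 579 in control and 520 to 2377 in CNV d3. The highest dendritic cell sum was in CNV d3 sample 2 (2377), ahead of sample 6 (2263) and sample 3 (2254). In CNV d3, samples 3 and 6 had the highest monocyte sums (51828 and 37443) and also the highest Ptger4 and Ptger2, and samples 1 and 4 had the lowest sums (4982 and 5591) and the lowest Ptger4. Ptger2 did not follow the sums at the low end, since sample 1 held 27.3 normalized counts and sample 2, with a sum of 18876, held 10.9. Without Fn1, the other 9 monocyte genes summed to 221 to 1022 in control and 1219 to 4438 in CNV d3, and samples 3 and 6 were again the highest and samples 1 and 4 the lowest. The part of such cells in the levels of Ptger2 and Ptger4 was not tested. The 10 microglia genes were present in every sample, with sums of 1354511 to 1524984 in control and 754090 to 1135277 in CNV d3, and 7 of the 10 were lower in CNV d3. P2ry12, a purine receptor of resting microglia, had the largest fall of the list, with means of 187891 and 61433 (log2FC = -1.65, padj = 1.0e-05). The median log2FC of the 10 microglia genes was -0.53, and Csf1r, Fcrls and Olfml3 did not pass the test. The part of the lower microglia markers in the lower levels of Ptgs1 and Ltc4s was not tested. Of 5 border macrophage genes 2 were higher, with sums of 35.7 to 1401 in control and 104 to 404 in CNV d3, and genes of T cells and NK cells summed to at most 5.02 in any sample. None of 6 photoreceptor and 4 pigment epithelium genes passed the test, 1 of 5 genes of Mueller glia and astrocytes was lower, and of 4 endothelial genes 1 was higher and 1 was lower.

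**Figure D2:**
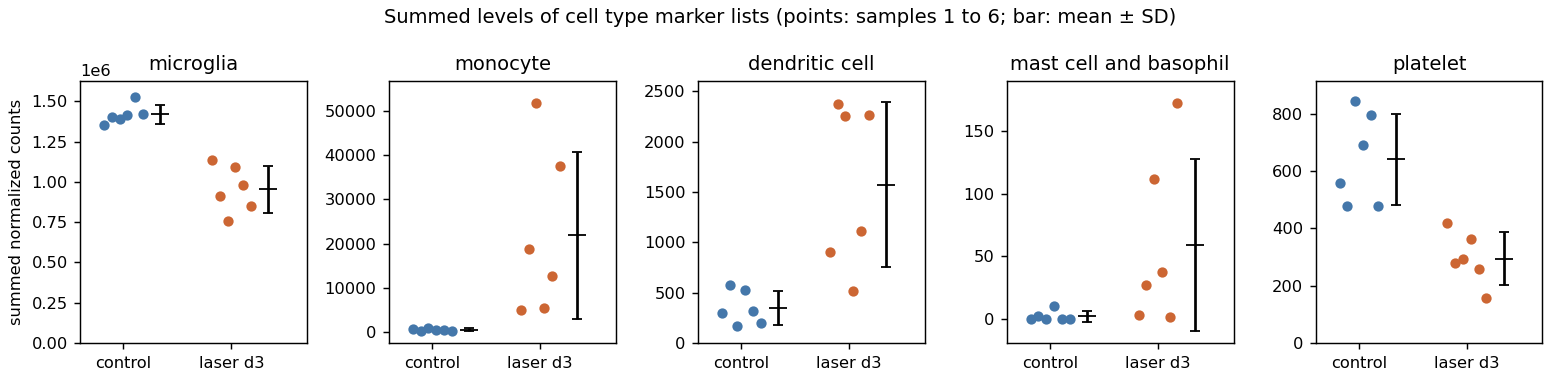
Summed normalized counts of marker lists (y axis, a scale for each list) in the control (blue) and CNV d3 (laser d3, orange) samples, with 1 point per sample in the order of the replicate numbers and a bar for the mean ± SD. Monocyte sums lie between 4982 and 51828 in CNV d3 and at most 1028 in control, microglia sums are lower in every CNV d3 sample, and mast cell and basophil sums stay at or below 173.

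The 2 genes that make leukotriene A4 differed less between the groups. Alox5, which encodes the lipoxygenase that starts leukotriene synthesis, lies on chromosome 6 (116410077 to 116461178, minus strand). It held 1531 to 2094 normalized counts in control with a median of 1769 and 1032 to 1595 in CNV d3 with a median of 1387. The groups overlapped through CNV d3 sample 2, whose 1595 normalized counts lay above the lowest controls. The means were 1799 ± 249 and 1370 ± 200 (SD, n = 6 each), and the difference did not pass the test (log2FC = -0.40, SE 0.13, padj = 0.058). It passed when genes without at least 10 normalized counts in at least 6 samples were left out first (limma padj = 0.030), and without control 1, control 4 or CNV d3 sample 2 (limma padj of 0.046, 0.044 and 0.046), and with DESeq2 on the reads of 11 samples (padj = 0.038).

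Alox5ap, which encodes the membrane protein FLAP that presents arachidonic acid to ALOX5, had nearly the same level in both groups. Control samples held 3730 to 5365 normalized counts with a median of 4362, and CNV d3 samples held 3795 to 5171 with a median of 4534. The means were 4471 ± 570 and 4447 ± 504 (SD, n = 6 each), and the interval of the log2 difference ran from -0.23 to 0.22 (log2FC = -0.0058, padj = 0.97). The gene lies on chromosome 5 (149264767 to 149288153, plus strand). Per kb of exon, Alox5 was 0.032 to 0.046 of the level of Ptgs1 in control and 0.043 to 0.063 in CNV d3, and these ranges overlapped.

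The 2 enzymes that use leukotriene A4 parted. Ltc4s, which conjugates it to glutathione to form leukotriene C4, fell to 43.8% of the control level, the largest fall among the 10 genes. The gene lies on chromosome 11 (50236461 to 50238616, minus strand) and its promoter sequence is given above. Control samples 1 to 6 held 2187, 2220, 2108, 1974, 2193 and 2621 normalized counts. CNV d3 samples 1 to 6 held 1154, 995, 890, 1235, 893 and 662. The highest CNV d3 sample was well below the lowest control, and sample 6 was the lowest of all. The means were 2217 ± 217 and 972 ± 206 (SD, n = 6 each; log2FC = -1.21, SE 0.14, padj = 8.5e-05), and the log2FC did not reach the size set for a DEG. The antisense gene Gm26542 overlaps exons of Ltc4s and held 52.0 normalized counts on average in control and 38.7 in CNV d3.

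Lta4h, the hydrolase that forms leukotriene B4, lies on chromosome 10 (93453411 to 93484875, plus strand). It held 1203 to 2260 normalized counts in control with a median of 1824 and 1460 to 2317 in CNV d3 with a median of 1860. The groups overlapped almost fully, with means of 1829 ± 381 and 1862 ± 277 (SD, n = 6 each) and an interval of the log2 difference from -0.28 to 0.37 (log2FC = 0.041, padj = 0.87). As a description, the level of Ltc4s per kb of exon was 5.61 to 9.88 times that of Lta4h in the control samples and 2.31 to 3.93 times in the CNV d3 samples, without overlap of the groups. Mast cells and basophils also carry Ltc4s, Hpgds and Alox5. Of the 9 genes of that list, 6 had no row and were not analysed here, and the other 3 (Kit, Cpa3 and Gata2) summed to 0 to 10.1 normalized counts in control and 1.602 to 173 in CNV d3. The protease gene Cpa3 held at most 5.19 normalized counts in any sample. Kit, which other progenitor and immune cells carry as well, was 0 in all control samples and 0 to 173 in CNV d3, with CNV d3 samples 1 and 5 at 0, and it was the 1 gene of the list that passed the test, as an increased DEG (limma padj = 0.042). The part of such cells in the levels of Ltc4s, Hpgds and Alox5 was not tested. Elane, Ly6g and Retnlg of the neutrophil list had no row either. Of the 7 neutrophil genes with a row, 4 were 0 in all control samples and none passed the test. Their sum was 9047 to 11562 in control and 4949 to 10770 in CNV d3. Almost all of it came from Csf3r, a cytokine receptor gene with means of 10220 and 8601.

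The order of the 10 genes by level per kb of exon was the same at the top in both groups and changed below it. The exon lengths include bases shared with other genes, where reads were dropped. Levels per kb of Ptgs1, Ltc4s, Alox5ap, Ptger2 and Ptger4 may therefore be too low, by a share that was not tested. In control it ran from Ptgs1 (11357 ± 500 normalized counts per kb, SD, n = 6) to Alox5ap (3148 ± 401), Ltc4s (2187 ± 214), Hpgds (1156 ± 142), Alox5 (438 ± 60.5) and Lta4h (300 ± 62.4). Each of these neighbours was separated from the next in all 6 control samples without overlap of their ranges. Ptger4 (18.2 ± 13.2) and Ptges (3.20 ± 2.02) followed with overlapping ranges, and Ptgs2 (0.14 ± 0.35) and Ptger2 (0) were at the end. In CNV d3, Ptgs1 (6435 ± 672) and Alox5ap (3132 ± 355) were again first and second. Hpgds (1063 ± 123) and Ltc4s (958 ± 203) came next with overlapping ranges, as did Alox5 (334 ± 48.7) and Lta4h (305 ± 45.4). Ptger4 (103 ± 40.6) was separated from both its neighbours, and Ptges (11.1 ± 15.6), Ptger2 (5.48 ± 3.60) and Ptgs2 (0.93 ± 1.64) overlapped. By level per kb, Ptgs1 ranked 62nd of all matched genes in control and 117th in CNV d3, Ltc4s 359th and 1016th, and Ptger4 11014th and 6317th.

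**Figure D3:**
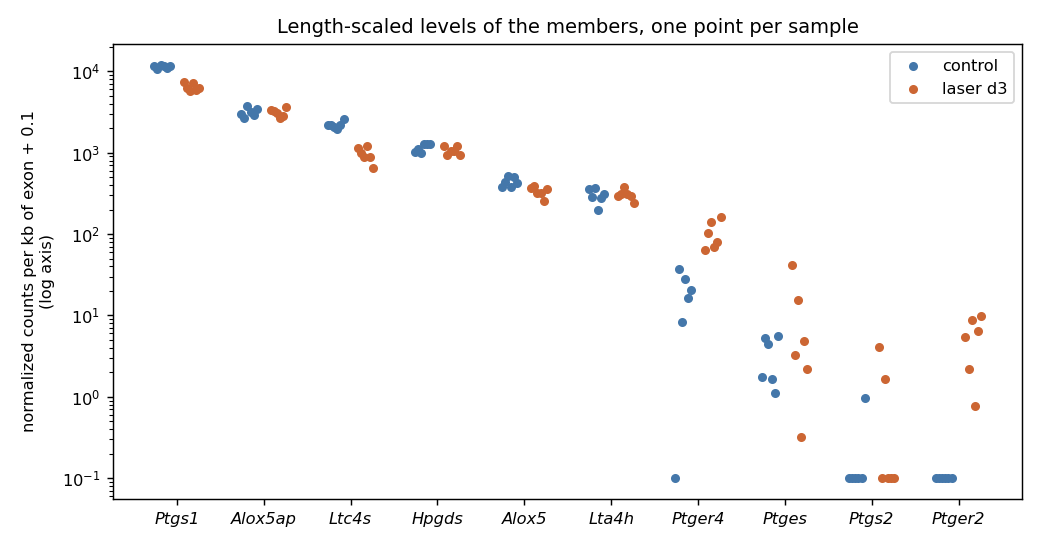
Normalized counts per kb of merged exon, plus 0.1 so that samples at 0 can be drawn (y axis, log scale), for the 10 genes ordered by their control mean, with 1 point per control (blue) and CNV d3 (laser d3, orange) sample. Ptgs1 is highest in both groups, Ltc4s drops from above Hpgds into its range, and Ptger4 and Ptger2 move up.

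Around these 10 genes, lists of further enzymes, receptors and transporters of the pathway held 64 gene symbols, of which 55 had a row. Of these 55, 7 were higher and 5 were lower in CNV d3 at a padj under 0.05 (8.29% and 4.57% of all genes), and 4 were increased DEG and none was a decreased DEG (3.91% and 1.07% of all genes). The counts of the single lists stand against the same shares. Their median log2FC was 0.12. Among 15 genes that release arachidonic acid or return it to phospholipids, 1 was higher and 3 were lower, with a median log2FC of -0.21. Pla2g15, a lysosomal phospholipase, held 21568 to 27405 normalized counts in control and 9209 to 17002 in CNV d3 (log2FC = -0.89, padj = 0.00032). Lpcat2, which makes platelet-activating factor and remodels phospholipids, held 43259 to 58367 and 25337 to 38909 (log2FC = -0.59, padj = 0.0016). Lpcat3, which places arachidonic acid into phospholipids, held 5057 to 6633 and 3702 to 4800 (log2FC = -0.44, padj = 0.0040). In all 3 the groups did not overlap. Pla2g5, a secreted phospholipase, had no read in control and 0 to 23.4 normalized counts in CNV d3, with sample 2 at 0, so that its mean of 10.4 was at least 1.75-fold higher than 3 reads in the shallowest control (limma padj = 0.013).

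Of 8 other prostanoid synthase genes, 1 was higher and 1 was lower. Ptges2 and Ptges3, further prostaglandin E synthase genes of that list, did not pass. Their means in control and CNV d3 were 362 and 343 for Ptges2 and 1517 and 1587 for Ptges3. Tbxas1, the thromboxane synthase, held 10909 to 14174 normalized counts in control and 7681 to 9716 in CNV d3, without overlap (log2FC = -0.60, SE 0.081, padj = 0.00025). Akr1b3, an aldose reductase that can also form prostaglandin F2α, held 1183 to 2065 in control and 2318 to 3642 in CNV d3, again without overlap (log2FC = 0.96, SE 0.15, padj = 0.00075). Of 5 other prostanoid receptor genes, none passed the test. The highest of them, the prostacyclin receptor gene Ptgir, had reads in 2 control and 3 CNV d3 samples, with at most 89.4 normalized counts.

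Of 7 genes of prostaglandin breakdown and transport, 1 was lower and 1 was higher. Hpgd, the dehydrogenase that starts the inactivation of prostaglandin E2, fell to 49.3% of the control level. Control samples held 17168 to 22461 normalized counts with a median of 18944, and CNV d3 samples held 7027 to 12591. Samples 3 and 6 of CNV d3 were the lowest, and the groups did not overlap (log2FC = -1.05, SE 0.14, padj = 0.00020). Ptgr1, a reductase that acts on keto prostaglandins and also inactivates leukotriene B4, held 282 to 521 in control and 664 to 1100 in CNV d3, without overlap (log2FC = 1.11, SE 0.19, padj = 0.0013).

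Of 6 other leukotriene enzyme genes, 2 were higher. Cyp4f18, an oxidase of leukotriene B4 in mouse, held 735 to 1078 normalized counts in control and 1689 to 3761 in CNV d3, a ratio of the means of 3.05 without overlap (log2FC = 1.56, SE 0.20, padj = 0.00016). CNV d3 samples 6, 2 and 3 were the highest, and these also had the highest monocyte sums, whose part was not tested. Without Fn1 the sum of sample 5 (2780) was above that of sample 2 (2290). Mgst3, a glutathione transferase that can form leukotriene C4, held 115 to 196 and 204 to 346 (log2FC = 0.68, SE 0.21, padj = 0.0499), and its padj was 0.0999 with the replicate number as a block. It was 0.054 without control 5, 0.052 without CNV d3 sample 3 and 0.127 with edgeR on the reads of 11 samples. Of 5 leukotriene receptor genes, none passed. The highest, the cysteinyl leukotriene receptor gene Cysltr1, held 3100 to 5207 and 2420 to 3624 with overlapping groups (log2FC = -0.39, SE 0.13, padj = 0.072), and without control 3 its padj was 0.048.

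Of 9 genes of other lipoxygenases and receptors of pro-resolving lipids, 2 were higher. Alox15, which oxygenates arachidonic acid at other positions than ALOX5, had 2 reads in control 3 and none in the other control samples. In CNV d3 samples 1 to 6 it held 42.1, 81.1, 85.0, 46.7, 44.1 and 44.9 normalized counts, each from at least 54 reads. Samples 2 and 3 were the highest, with monocyte sums of 18876 and 51828, but sample 6, with a monocyte sum of 37443, was among the 4 lower ones, and the part of monocytes was not tested. The log2FC was 5.52 (SE 0.66, padj = 8.8e-05), and it depends on the pseudocount because the control level is near 0. Alox12, the lipoxygenase known from platelets, held at most 1.13 normalized counts in 5 control samples and 40.2 in control 5, and 8.81 to 63.5 in CNV d3 (log2FC = 3.46, SE 0.96, padj = 0.027). Its padj was between 0.051 and 0.064 without control 1, 2, 4 or 6 or without CNV d3 sample 2, 3, 4 or 6, and 0.079 with the replicate number as a block. Of 5 platelet genes with a row, none was higher and 1 was lower, and their sum was 478 to 844 in control and 155 to 420 in CNV d3. The lower gene was Gp9, with means of 534 and 196, whereas the median log2FC of the 5 platelet genes was 0.94. The part of platelets in the level of Alox12 was not tested. Cmklr1, a receptor for chemerin and a lipid mediator, was the highest gene of the list and did not pass (log2FC = 0.54, SE 0.19, padj = 0.088).

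**Figure D4:**
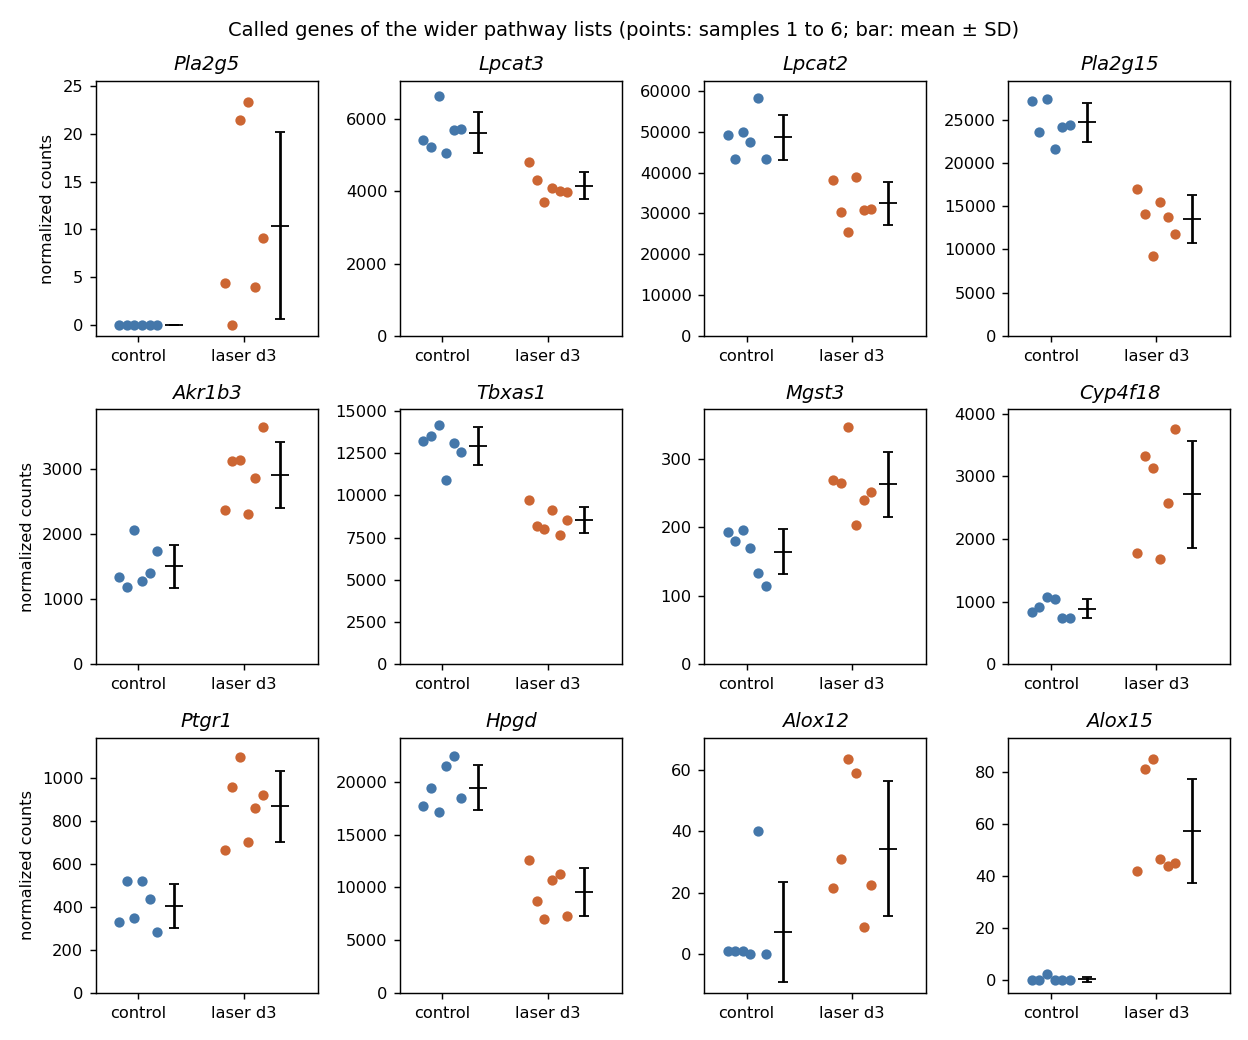
Normalized counts of the 12 further pathway genes with a padj under 0.05 (y axis, a scale for each gene) in the control (blue) and CNV d3 (laser d3, orange) samples, with 1 point per sample in the order of the replicate numbers and a bar for the mean ± SD. Lpcat2, Lpcat3, Pla2g15, Tbxas1 and Hpgd are lower in every CNV d3 sample than in any control sample, and control 5 stands apart in Alox12.

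**Figure D5:**
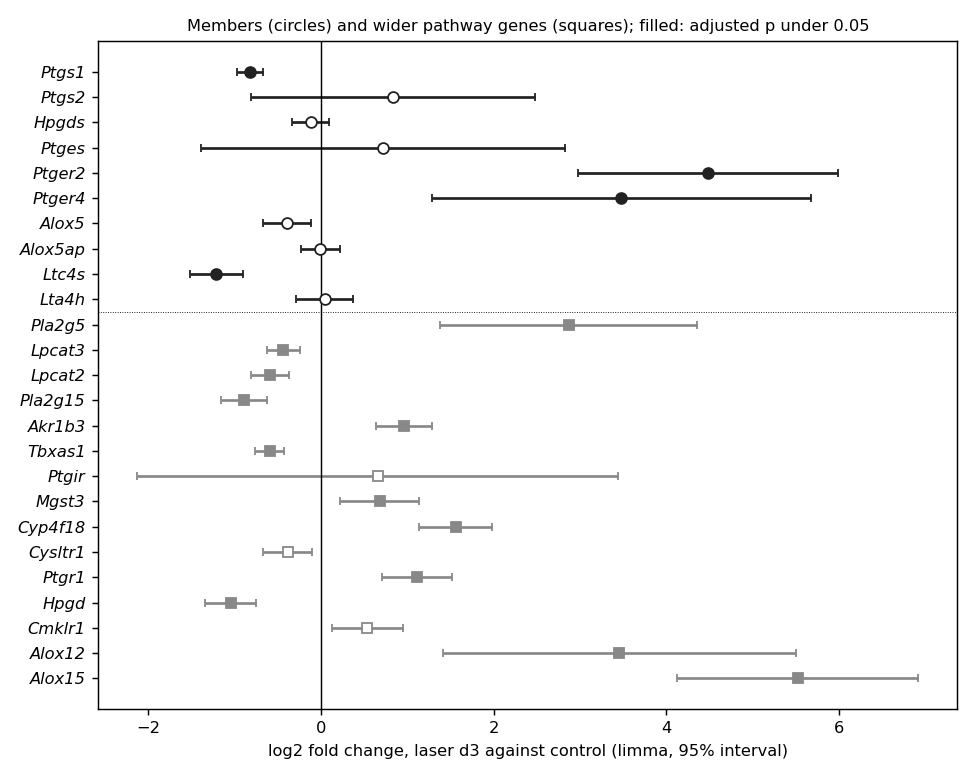
The log2FC of CNV d3 against control with the 95% interval of limma (x axis) for the 10 genes (circles) and the named genes of the further lists (squares), filled where the padj was under 0.05. The intervals of Ptgs1 and Ltc4s lie below 0, those of Ptger2 and Ptger4 above 0, and those of Hpgds, Alox5ap and Lta4h include 0 within a narrow range.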

How the data were processed

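RNA from sorted retinal microglia was amplified as full-length cDNA, made into libraries with a transposase and sequenced as single reads. According to the processing notes of the submitters, FastQC 0.72, STAR 2.7.2b, featureCounts 1.6.4, R 3.5.3 and DESeq2 1.22.2 were used on GRCm38.p6. The authors merged the alignments of each sample, counted reads per gene without strand and deposited, as the signal of each sample, counts divided by a DESeq2 size factor. Reads in exons of several genes were dropped. The 19 GEO samples form 12 samples, since all control samples and CNV d3 sample 4 were listed in 2 parts. The listing thus nearly coincides with the group, and its share in the differences was not tested. The methods of the study describe 2 merged alignment files for every sample, from different flow cells, which the listing does not show for the other CNV d3 samples. The deposited group means, log2 fold changes and adjusted p-values of the authors were not used.

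Groups and replicate numbers came from the labels. Because the values are not counts, limma 3.58.1 in R 4.3.3 was used on log2(value + 1) with a variance trend, over 27299 genes and without a further filter. Divided by the smallest value of its sample, 100% of the values came out whole in each of the 12 samples (tolerance 0.01 reads). The step of control 5 was too near 1 to count as recovered, so edgeR 4.0.16, DESeq2 1.42.0 and thinning to 10963178 reads were run on the other 11 samples, as alternatives chosen after seeing the data. Other alternatives were pseudocounts of 0.5 and 5, a filter of 10 normalized counts in 6 samples, TMM and total scaling, a replicate block and leaving out each sample. The 3 tools were tested on simulated data.

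The members and lists were chosen with earlier results of these data known. All 10 members are named, and of each list the genes with a padj under 0.05 and a mean of at least 10 in 1 group (at most 4 by mean) and the gene with the highest mean. Ptges2 and Ptges3 were named after their values were seen. Coordinates and exon lengths are from Gencode M21 on GRCm38, which matched 27238 genes. RefSeq promoters matched 9 of the 10 members. The libraries were amplified by PCR and carried no molecular identifiers, so floors of 3 reads cover counting error only.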

Additional observations from a re-analysis of the deposited data

Results flagged for a closer look

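Among 25 genes (the 10 members and the named genes of the further lists), checked in both groups, 5 of the 50 groups of 6 samples held a sample whose gap to its nearest neighbour exceeded 0.625 of the range of the group (Dixon's ratio), which chance gives in about 1 in 20 groups of normally spread values. That rate does not apply to the control groups of Ptgs2 and Alox15, in which 5 of the 6 samples were at 0, or to that of Ptgir, in which 4 were. The control groups of Ptger2 and Pla2g5 were at 0 in all 6 samples and could not be flagged. Among the members, Ptges in CNV d3 sample 1 held 162 normalized counts against 60.0 in the next sample. Ptgs2 in control 6 held 3.97, with 0 in the other control samples. Among the further genes, Ptgir in control 6 held 89.4 against 5.63 in the next control, Alox12 in control 5 held 40.2 against 1.13, and Alox15 in control 3 held 2.25 against 0. Control 6 was the shallowest of the samples with recovered reads, with 10963178 reads on genes.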

How the results depend on the processing

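Ptgs1, Ltc4s and Ptger2 kept their direction and their call in every setting that gave a value (Ptgs1 log2FC from -0.87 to -0.78, Ltc4s from -1.29 to -1.11, and Ptger2, which has no control reads, from 2.48 with a pseudocount of 5 to 7.92 with edgeR). Ptger2 was removed by the filter of 10 normalized counts in 6 samples, so 1 member was called higher there, by padj and as a DEG. Ptger4 was lost in the thinned fit of 11 samples (limma padj = 0.092), so again 1 member was called higher by both rules, but it was also lost without control 5 and with no thinning (padj = 0.076). Leaving out 1 sample gave 1 to 2 higher members. With edgeR and DESeq2 the padj of Ptger4 was 0.018 and 0.023. Without 1 sample, log2FC ranged from -0.056 to 0.049 for Alox5ap and from -0.074 to 0.11 for Lta4h. The near-zero log2FC of Alox5ap turned to 0.0058 with TMM, 0.020 with total scaling, 0.017 with edgeR, 0.049 and 0.019 without control 3 and 6, and 0.038 and 0.025 without CNV d3 samples 4 and 5. That of Lta4h turned to -0.074 without control 4 and -0.024 without CNV d3 sample 3, and that of Ptgir to -0.78 with edgeR, -0.86 with DESeq2 and -0.19 after thinning. Lower genes of the further lists numbered 8 with the filter and 8 with DESeq2 in place of 5, and 5 to 9 without 1 sample, with 9 without control 3 and 8 without control 4. Increased DEG of these lists numbered 2 to 4 without 1 sample, with 2 without CNV d3 sample 2 or 6. Over all genes, 673 were increased DEG in the thinned fit of 11 samples in place of 1068 (931 without control 5 and with no thinning), and DESeq2 called 2130 lower genes in place of 1247 and 579 decreased DEG in place of 293. Cysltr1 and Cmklr1 passed the test with the filter (padj = 0.039 and 0.0499) and with DESeq2 (0.042 and 0.031). The causes were not tested.

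Same-numbered control and CNV d3 samples deviated together with correlations of -0.019 to 0.051, none over 0.1, and 1 of the 6 controls correlated best with its own number. The labels give only the shared number, and these values cannot settle whether such samples were handled together. With the replicate block, padj was 0.00032 for Ptgs1, 0.0020 for Ltc4s, 0.0064 for Ptger2 and 0.025 for Ptger4, and 2 members were higher and 2 lower as without it. Scaling moved the log2FC of genes with a mean of at least 10 by a median of at most 0.026. Controls were shallower than CNV d3, which limits what can be said of Ptgs2 and Ptger2 in control.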
